A study of Nannochloropsis oceanica with 6 samples.

Results

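Carbonic anhydrases were examined in Nannochloropsis oceanica strain IMET1, a single-celled marine alga of the eustigmatophytes, at high and at low CO2. The members were the 5 genes described as carbonic anhydrase in the deposited gene tables, out of 10633 genes: NO20G00630, NO10G03400, NO01G01240, NO04G04510 and NO23G01760. A search of every description column for carbonic anhydrase or carbonate dehydratase returned 5 genes, and all 5 were members. All 6 cultures were seeded to an OD750 of 1.5 in 800 ml of modified f/2 seawater medium with 10 mM Tris at pH 8.2, kept at 25 °C under continuous light of 80 µmol photons m-2 s-1 and bubbled for 1 h with air holding 5% CO2. The 3 high CO2 cultures then stayed at 5% CO2 as the control, and the 3 low CO2 cultures were moved to 0.04% CO2. Each reactor gave 1 poly(A) RNA library, taken 24 h later, so the replicates were separate cultures of 1 strain sampled at 1 time.

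Carbonic anhydrases interconvert CO2 and bicarbonate, and most of them hold zinc at the active site. The alpha, beta and gamma classes share this reaction but not an ancestor. At the slightly alkaline pH of such a medium most dissolved inorganic carbon is bicarbonate, whereas the carbon-fixing enzyme Rubisco takes CO2. In well-studied green algae such as Chlamydomonas, several carbonic anhydrases belong to the CO2-concentrating mechanism, which brings bicarbonate into the cell and the chloroplast and turns it into CO2 beside Rubisco. Gamma-type proteins of land plants have another place: they are built into the membrane arm of mitochondrial complex I, the NADH dehydrogenase of the respiratory chain.

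The descriptions placed the 5 genes in these classes. NO20G00630 was matched to carbonic anhydrase 4 of the green alga Dunaliella salina and to cah-3 of Caenorhabditis elegans, and animal enzymes of this family are of the alpha class. NO10G03400 was matched to a beta-type enzyme of the green alga Lobosphaera incisa. NO01G01240 was matched to the bacterial cynT gene, whose product is a beta-class enzyme and in Escherichia coli works beside the cyanate-degrading enzyme cyanase. NO04G04510 and NO23G01760 were both matched to Arabidopsis thaliana gamma carbonic anhydrase 2, a mitochondrial protein. The matches are the authors' and give no location for the algal proteins.

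Libraries held 4620234 to 6112822 counts, and the 5 genes together took 0.173% to 0.3% of them. A library in each group was unlike the rest of it: replicate 3 of high CO2 and replicate 1 of low CO2. Across genes, Pearson's r of log2 CPM was 0.982 between high CO2 replicates 1 and 2, and 0.944 and 0.952 between replicate 3 and these. It was 0.987 between low CO2 replicates 2 and 3, and 0.923 and 0.932 between replicate 1 and these. Between the groups, low CO2 replicate 1 was at 0.942, 0.946 and 0.929 with high CO2 replicates 1 to 3. It was thus closer to high CO2 replicates 1 and 2 than to its own group. High CO2 replicate 3 was at 0.929, 0.892 and 0.887 with low CO2 replicates 1 to 3, below its values within high CO2. Values without these libraries are therefore given beside the results they touch. The libraries were picked from these same data as the most unlike, which narrows the spread within groups. Adjusted p-values from the fit without both can therefore be too small. All 30 counts of the 5 genes were exactly whole as the files print them, in tables where 17.5% to 19.8% of the values of a library were not whole (off by more than 0.004). Counting error was 0.949% of the count at the best-covered value and 8.91% at the thinnest, and covers neither culture nor library preparation.

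None of the 5 carbonic anhydrases passed the test between low and high CO2 in edgeR's quasi-likelihood fit over all genes (Benjamini-Hochberg adjusted p below 0.05), where 2.12% of 9244 genes did. All 5 passed the filter on low counts. At an unadjusted p below 0.05 there were 2 of the 5 (NO01G01240 and NO04G04510), against 18.6% of all genes tested. DESeq2 called 1 of the 5, NO01G01240, where it called 6.36% of 9242 genes, and limma on log2(FPKM + 1) called none of them (1.88% of its genes). None of the 5 was in the authors' deposited table of changed genes, which lists only 217 of the 10633 genes. The FPKM ranges of the groups did not overlap at NO01G01240, NO04G04510 and NO23G01760, where 25.4% of all genes tested did not overlap either. Levels are in FPKM, reads scaled to gene length and to library size, a scale on which genes of different length can be set side by side.

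**Figure D1:**
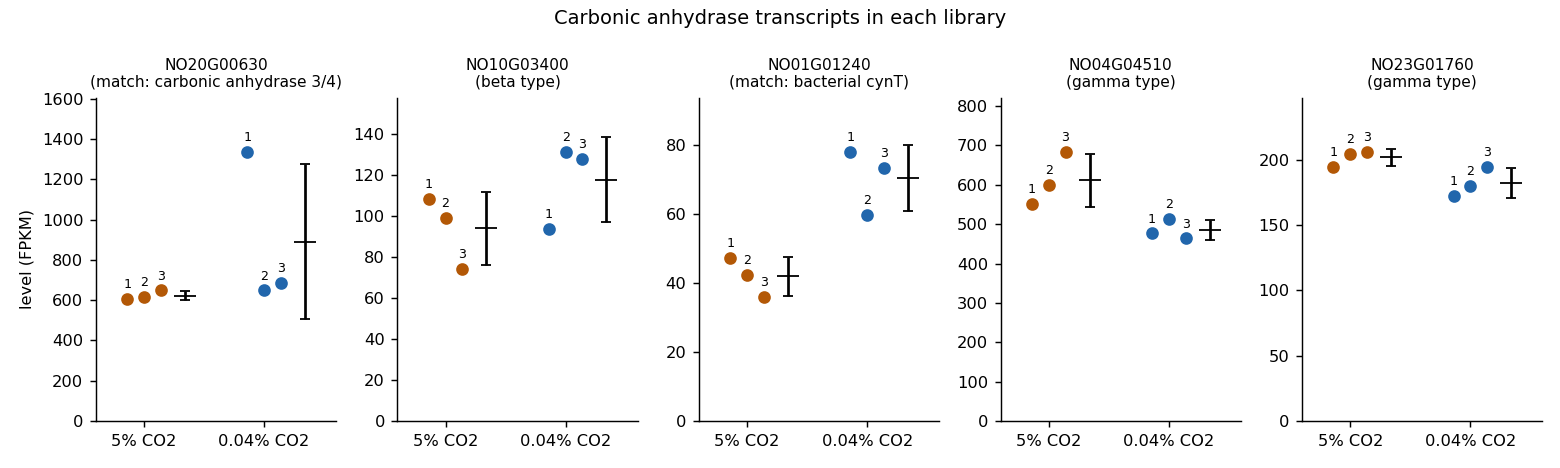
Level (FPKM, linear axis from 0, one scale per panel) of each carbonic anhydrase in every library at 5% and 0.04% CO2; points are libraries with their replicate number, the dash beside them is the mean and the bar the SD over 3 cultures. NO20G00630 is at 1337 FPKM in low CO2 replicate 1 and at 604 to 687 in the other 5 libraries, while NO01G01240 is higher and NO04G04510 lower in all 3 low CO2 libraries than in any high CO2 library.

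The alpha-class match, NO20G00630, was the most abundant carbonic anhydrase in 5 of 6 libraries. It was at 604, 615 and 648 FPKM in high CO2 replicates 1, 2 and 3, and at 1337, 648 and 687 FPKM in low CO2 replicates 1, 2 and 3. The 3 high CO2 libraries lay close together (SD 3.72% of the mean), low CO2 replicate 1 was far above all others, and low CO2 replicate 2 (648.29) fell just under high CO2 replicate 3 (648.42), so the groups overlapped. Group means were 622 ± 23.1 and 891 ± 387 FPKM (SD, n = 3 each).

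The log2 fold change of NO20G00630, low minus high CO2, was 0.48 (SE 0.32, edgeR adjusted p = 0.453), with a 95% interval from 0.823-fold to 2.37-fold. Without low CO2 replicate 1 it was -0.03 (adjusted p = 0.833), and the interval ran from 0.832-fold to 1.15-fold. Without both libraries that stood apart it was 0.03 (adjusted p = 0.73; interval 0.943-fold to 1.1-fold). The size of the difference thus depended on 1 library, and what was left without it depended on the scale. In FPKM the mean of low CO2 replicates 2 and 3 was 668, still above the 622 of high CO2. In log2 CPM with no TMM scaling, the gene in low CO2 replicate 1 was 1.00 above the mean of low CO2 replicates 2 and 3. On that scale 515 of 9244 genes (5.57%) rose at least as far, while the median gene was at -0.21. In TPM, which sets every library to the same sum, low CO2 replicates 2 and 3 were at 979 and 1046, above the 873 to 887 of high CO2. In CPM scaled by TMM they were at 1089 and 1158, within the 1085 to 1240 of high CO2.

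The beta-type NO10G03400 was at 109, 99.0 and 74.4 FPKM in high CO2 replicates 1 to 3 and at 94.0, 132 and 128 FPKM in low CO2 replicates 1 to 3. The groups overlapped, since low CO2 replicate 1 was below high CO2 replicates 1 and 2, and the lowest library of each group was the one that stood apart. Means were 94.0 ± 17.7 and 118 ± 20.8 FPKM (SD, n = 3 each), with a log2 fold change of 0.27 (SE 0.17, edgeR adjusted p = 0.423; interval 0.916-fold to 1.58-fold). Without high CO2 replicate 3 it was 0.13 (adjusted p = 0.714), and without both of those libraries 0.22 (adjusted p = 0.0727).

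The cynT match, NO01G01240, was the least abundant member in every library. It was at 47.5, 42.4 and 36.1 FPKM in high CO2 replicates 1 to 3 and at 78.2, 59.8 and 73.6 FPKM in low CO2 replicates 1 to 3. Every low CO2 library was above every high CO2 library, on 126 to 175 counts in high and 243 to 326 in low CO2. Means were 42.0 ± 5.68 and 70.5 ± 9.55 FPKM (SD, n = 3 each). The fitted change was 1.62-fold (log2 0.70, SE 0.19, interval 1.19-fold to 2.2-fold), with an unadjusted p of 0.00715 and an adjusted p of 0.122 in edgeR. Of all genes tested, 11.8% had a change at least as large in either direction. With the replicate number as a block the edgeR adjusted p was 0.366, and over the 6 fits that leave out a library it was 0.0631 to 0.377. DESeq2 gave an adjusted p of 0.0444, and without both libraries that stood apart edgeR gave a log2 fold change of 0.47 (adjusted p = 0.0161). In that reduced fit, of 2 against 2 libraries, 2 of the 5 members were called, 1 higher and 1 lower, where 36.6% of 9300 genes were called (17.2% higher and 19.4% lower).

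NO04G04510, a gamma type, was at 551, 600 and 684 FPKM in high CO2 replicates 1 to 3 and at 476, 513 and 464 FPKM in low CO2 replicates 1 to 3. All 3 low CO2 libraries were below all 3 high CO2 libraries, with high CO2 replicate 3 the highest of the 6. Means were 612 ± 67.2 and 484 ± 25.5 FPKM (SD, n = 3 each). The log2 fold change was -0.42 (SE 0.14), a level in low CO2 of 0.749 times that in high CO2 with an interval from 0.599 to 0.935 times (unadjusted p = 0.0176, edgeR adjusted p = 0.171). Without high CO2 replicate 3 the log2 fold change was -0.30 (edgeR adjusted p = 0.333; interval 0.665 to 0.997 times). Without low CO2 replicate 1 it was -0.48 (edgeR adjusted p = 0.0516), in a fit that called 1610 genes. Without both libraries that stood apart the log2 fold change was -0.36 (SE 0.07, edgeR adjusted p = 0.000478), which made NO04G04510 the member called lower in that fit. That p-value rests on the libraries most alike in each group.

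NO23G01760, the other gamma type, was at 194, 205 and 206 FPKM in high CO2 replicates 1 to 3 and at 172, 180 and 194 FPKM in low CO2 replicates 1 to 3. The groups were parted only by high CO2 replicate 1 (194.43) over low CO2 replicate 3 (194.15), and in TPM they overlapped. Means were 202 ± 6.28 and 182 ± 11.3 FPKM (SD, n = 3 each), with a log2 fold change of -0.21 (SE 0.11, edgeR adjusted p = 0.339; interval 0.721-fold to 1.03-fold). Both gamma types thus had a fitted value below 0 and the other 3 members a fitted value above 0, and none of these 5 values passed over all genes. The RNA came from whole cultures, so fewer cells carrying a transcript and less of it per cell cannot be told apart.

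**Figure D2:**
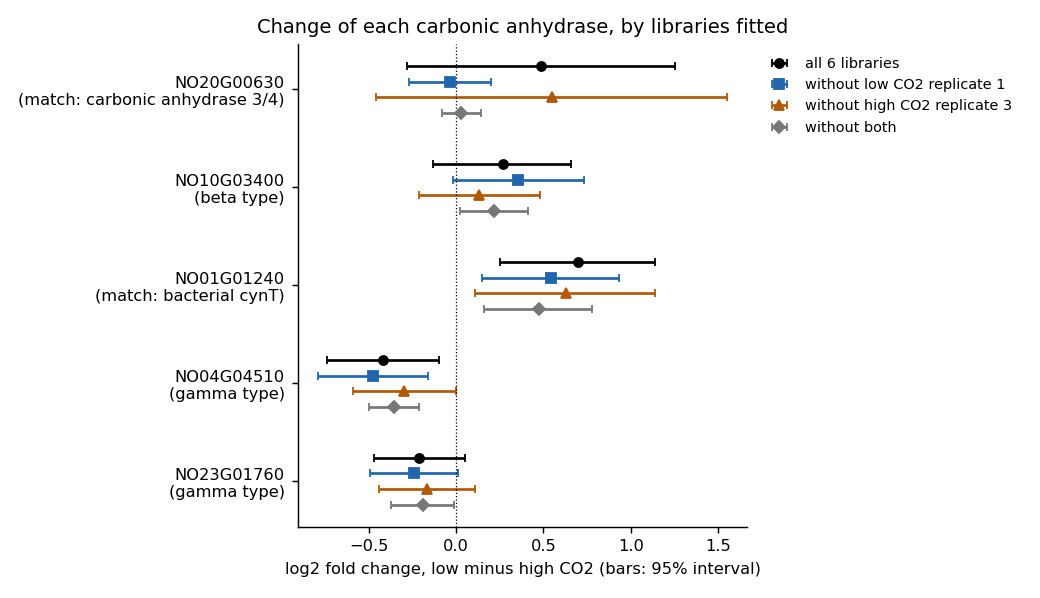
Log2 fold change (low minus high CO2) of each carbonic anhydrase from edgeR with its 95% interval, fitted to all 6 libraries, without low CO2 replicate 1, without high CO2 replicate 3 and without both. The value of NO20G00630 goes from 0.48 to -0.03 without low CO2 replicate 1, while NO01G01240 stays above 0 and NO04G04510 below 0 in all 4 fits.

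The order of levels was nearly the same in every library. NO20G00630 came first, followed by NO04G04510, NO23G01760, NO10G03400 and NO01G01240, except in high CO2 replicate 3, where NO04G04510 (684 FPKM) was above NO20G00630 (648 FPKM). In high CO2 the ranges of these leading genes overlapped (604 to 648 against 551 to 684 FPKM), so they did not differ beyond their spread there. In low CO2 they were apart, at 648 to 1337 against 464 to 513 FPKM. The ranges of all other neighbours in the order were apart within each group. The median gene of a library was at 20.8 to 25.5 FPKM, so even NO01G01240 lay above it. Among the 10633 genes NO20G00630 ranked 46th in low CO2 replicate 1 and from 82nd to 143rd in the other libraries, and NO04G04510 from 123rd to 188th.

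Shares within a library do not depend on how libraries are scaled to each other. NO20G00630 made up 40.1%, 39.4% and 39.3% of the summed FPKM of the 5 genes in high CO2 replicates 1 to 3, and 62%, 42.3% and 44.4% in low CO2 replicates 1 to 3. NO04G04510 made up 36.6%, 38.4% and 41.5% in high CO2, and 22.1%, 33.5% and 30% in low CO2. NO01G01240 made up 3.15%, 2.72% and 2.19% in high CO2, and 3.62%, 3.9% and 4.76% in low CO2. For these 3 genes the groups did not overlap, also without low CO2 replicate 1. The shares of a library add up to the whole, so a fall in any of them goes with a rise in others. The 3 differences are therefore not separate results. In shares of counts, with no scaling to length, the difference of NO01G01240 fell from 1.41 to 0.689 percentage points and its groups overlapped (exact permutation p = 0.2). In FPKM each of the 3 differences had an exact two-sided permutation p of 0.1, the smallest that 3 against 3 libraries allow (0.2 after adjustment over 6 such comparisons), so the design could not bring it below 0.05.

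In FPKM the remaining shares and the sum overlapped between the groups. NO10G03400 made up 4.51% to 7.21% in high and 4.36% to 8.58% in low CO2 (exact permutation p = 0.6, adjusted 0.7). NO23G01760 made up 12.5% to 13.1% in high CO2 and 7.97%, 11.7% and 12.5% in low CO2 (exact permutation p = 0.2, adjusted 0.3). The summed level of all 5 was 1506, 1560 and 1649 FPKM in high CO2 and 2157, 1532 and 1547 FPKM in low CO2, a difference of means of 174 FPKM (exact permutation p = 0.7, adjusted 0.7) that was -32 FPKM without low CO2 replicate 1. The sum depended on the scale. In TPM its groups did not overlap, with a difference of 373 (exact permutation p = 0.1, unadjusted). In CPM, with no scaling to length, the difference was 427 (exact permutation p = 0.3, unadjusted).

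**Figure D3:**
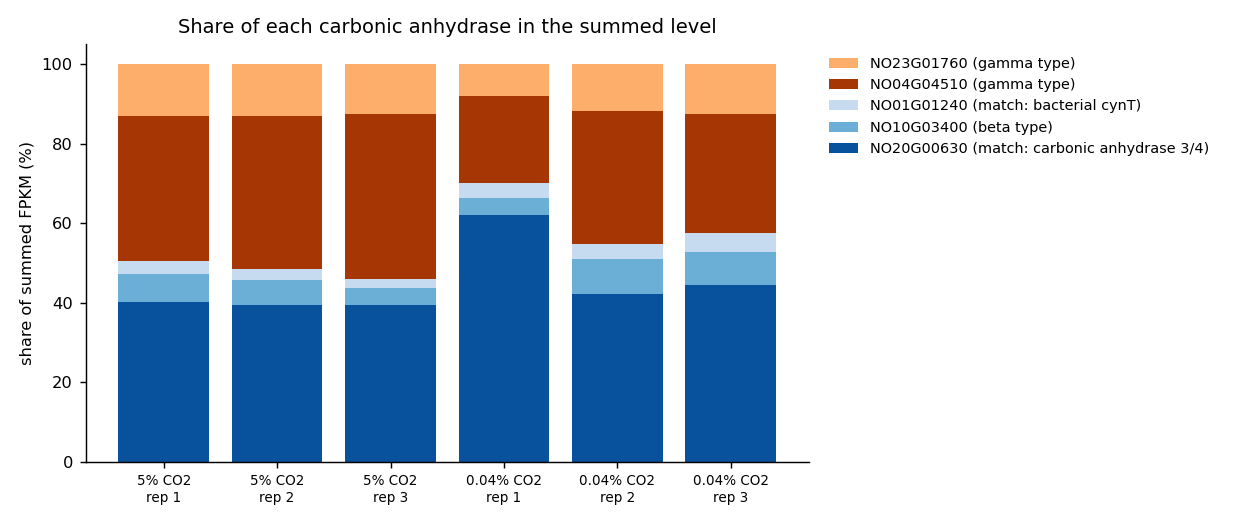
Share (%) of each carbonic anhydrase in the summed FPKM of the 5 genes, one bar per library, with the gamma types at the top of each bar. The gamma types together fill 49.5% to 54% of the bar in the high CO2 libraries and 30% to 45.2% in the low CO2 libraries.

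Split by class, a division made after the values were seen and given as a description, the gamma types summed to 746, 804 and 890 FPKM in high CO2 replicates 1 to 3 and to 648, 693 and 658 FPKM in low CO2 replicates 1 to 3. They were thus 49.5% to 54% of all carbonic anhydrase FPKM in high CO2, and 30%, 45.2% and 42.5% in low CO2. The other 3 genes summed to 760, 756 and 759 FPKM in high CO2, and to 1509, 840 and 889 FPKM in low CO2. Within the gamma pair, NO04G04510 was 2.84, 2.93 and 3.32 times NO23G01760 in high CO2 and 2.77, 2.85 and 2.39 times in low CO2, ranges that overlapped.

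NO01G01240 and NO04G04510 mostly ran opposite to each other between libraries. Within high CO2, the library with the highest NO01G01240 (replicate 1, 47.5 FPKM) had the lowest NO04G04510 (551 FPKM), and replicate 3 had the lowest of the former and the highest of the latter. Within low CO2, replicate 2 had the lowest NO01G01240 and the highest NO04G04510, but replicate 1 was above replicate 3 for both genes (78.2 against 73.6 and 476 against 464 FPKM). Pearson's r of log2(FPKM + 1) over the 6 libraries was -0.97, a description over points that share libraries and fall into 2 groups. Their listed lengths were close, 966 bases against 902 to 914.

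For NO04G04510 and NO10G03400 the tables list a second transcript outside the locus numbering, and the listed gene length then varies between libraries. For NO04G04510 it was 914, 912 and 911 bases in high CO2 and 907, 902 and 904 bases in low CO2, shorter in every low CO2 library, by 0.872% of the high CO2 mean. Among 3121 genes with more than 1 transcript and at least 50 counts in every library, 5.64% were shorter in low CO2 without overlap and 19.7% did not overlap in either direction. For NO10G03400 it was 1115 to 1163 bases in high and 1146 to 1156 bases in low CO2, ranges that overlapped. Levels of the single transcripts were not analysed here.

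Genes of related function gave the setting of these values. None of 20 genes described as complex I subunits or assembly factors, the complex that holds the gamma types in plants, was called, with a median log2 fold change of -0.16 against 0.01 for all genes tested. Of the 20, 15 had a value below 0, where 48.6% of all genes did, and the range was -0.55 to 0.46. The value of NO04G04510 (-0.42) was above 1 of the 20 and below the other 19, and that of NO23G01760 (-0.21) was above 6 of them. In level, NO04G04510 was above all 20 in each of the 6 libraries, while NO23G01760 had 8 to 13 of the 20 above it, whose median was 191 to 215 FPKM. By its mean over all libraries the most abundant of the 20 was NO03G01800, described as subunit 7 of the beta subcomplex, at 525 ± 138 and 405 ± 63.4 FPKM, with 682 FPKM in high CO2 replicate 3 and 425 and 468 in replicates 1 and 2 (log2 fold change -0.36, edgeR adjusted p = 0.622). In high CO2 replicates 1 and 2, NO13G01410, described as subunit 10-B of the same subcomplex, was above it at 508 and 479 FPKM.

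Of 14 genes on a list of enzymes that use bicarbonate, among them acetyl-CoA, propionyl-CoA, methylcrotonoyl-CoA, pyruvate and phosphoenolpyruvate carboxylases, carbamoyl-phosphate synthase and cyanase, none was called (median log2 fold change 0.08, range -0.59 to 2.29). By their wording 2 of the 14 are kinases, NO17G00750 and NO17G00760, and the 2.29 belongs to NO17G00760. The largest value among the others was 1.29, at NO11G00760, described as a phosphoenolpyruvate carboxylase (edgeR adjusted p = 0.0535). Its means were 10.5 FPKM in high and 26.9 FPKM in low CO2. The most abundant was cyanase (NO11G00510), which breaks down cyanate with bicarbonate and is the partner of the cynT enzyme in E. coli. It was at 247 and 253 FPKM in high and low CO2 (log2 fold change 0.02, edgeR adjusted p = 0.937), beside 42.0 and 70.5 FPKM for NO01G01240.

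A list of transporters for bicarbonate and other anions held 12 genes, and none was called (median log2 fold change 0.26, range -0.08 to 0.85), and several of these are described as molybdate or organic anion transporters. The most abundant, NO08G01230, described as an electroneutral sodium bicarbonate exchanger, had means of 59.3 and 70.6 FPKM, a log2 fold change of 0.18 (edgeR adjusted p = 0.52). The Rubisco list held 1 gene, NO01G02280, with 2 unlike matches: the Rubisco activase CbbX and a transketolase 1 of Medicago truncatula. It had means of 550 and 704 FPKM and a log2 fold change of 0.30 (edgeR adjusted p = 0.358).

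Of 5 genes on the list of C4-type enzymes, 1 was called higher and 1 lower, both pyruvate, phosphate dikinases (NO12G00860, log2 fold change 0.80, adjusted p = 0.031; NO26G01010, -1.14, adjusted p = 0.0142). Of 16 on the photorespiration list, which by wording took in phosphoglycerate kinases, 1 was called higher, serine hydroxymethyltransferase 2 (NO01G02190, 1.30, adjusted p = 0.0205), and the median was 0.20. Over all genes 2.12% were called. These 3 calls ended with the replicate block (adjusted p = 0.227 for NO12G00860, 0.116 for NO26G01010 and 0.116 for NO01G02190). They also ended in 5, 5 and 4 of the 6 fits that leave out a library, where the adjusted p ran from 0.0039 to 0.183, from 0.000736 to 0.0928 and from 0.00849 to 0.103. The call of NO12G00860 also ended with the length trend removed (adjusted p = 0.12).

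**Figure D4:**
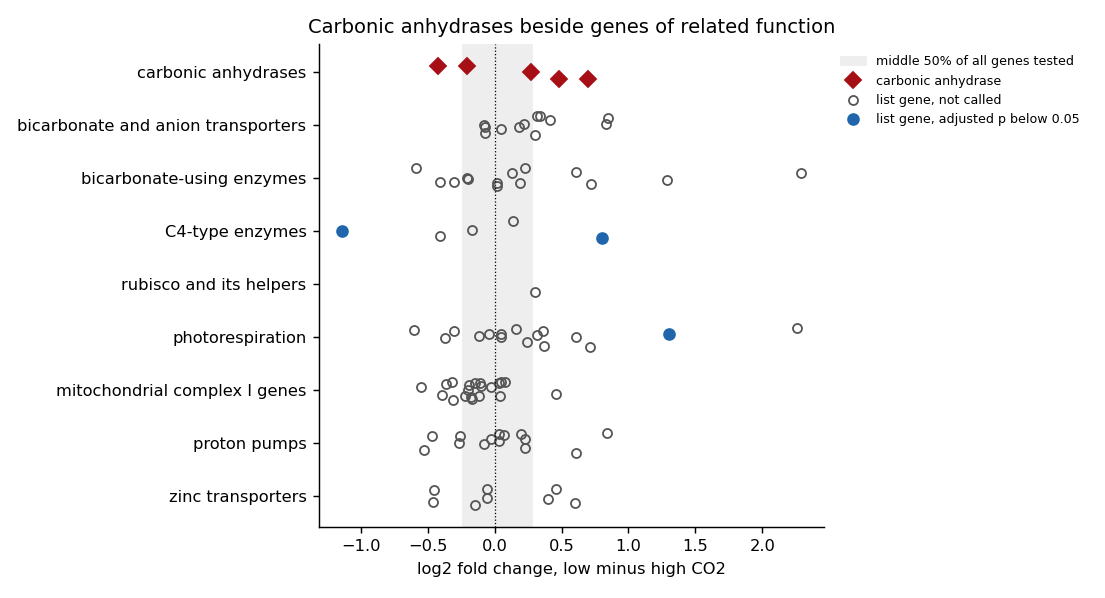
Log2 fold change (low minus high CO2) of the 5 carbonic anhydrases (red diamonds) and of the genes of 8 related lists (circles, filled where the adjusted p is below 0.05); the grey band spans the middle of all genes tested, from -0.24 to 0.28. The carbonic anhydrases run from -0.42 to 0.70, and 3 of the list genes are filled.

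Genes with the most similar pattern were sought among the 5952 genes that carry a description and average 5 FPKM or more, by Pearson's r of log2(FPKM + 1) over the 6 libraries. These are descriptions, and with 6 points that share library-wide shifts high values are common: 365 genes reached 0.95 with NO10G03400, 71 with NO04G04510, 31 with NO01G01240, 18 with NO20G00630 and 12 with NO23G01760. The closest to NO20G00630 was a UDP-glucose dehydrogenase (NO14G01750, r = 0.989), at 90.7 FPKM in low CO2 replicate 1 and at 56.2 to 63.9 in the other libraries. It was followed by a gene matched to the MYB3R-5 transcription factor (NO27G01050, r = 0.988) and an undescribed protein match (NO06G04580, r = 0.984). The closest to NO10G03400 was a sodium/hydrogen exchanger match (NO13G03010, r = 0.997), then a tocopherol methyltransferase (NO10G01490, r = 0.996) and an isovaleryl-CoA dehydrogenase (NO01G04950, r = 0.995). NO01G01240 was closest to a BTF3 homolog (NO03G03730, r = 0.992), a peroxisomal adenine nucleotide carrier match (NO09G03880, r = 0.991) and a pyridine nucleotide-disulfide oxidoreductase (NO21G01540, r = 0.988). NO04G04510 was closest to a caltractin match (NO08G01550, r = 0.992), a 3-ketoacyl-CoA reductase (NO02G01560, r = 0.990) and a proteasome alpha subunit match (NO02G02680, r = 0.990). NO23G01760 was closest to a hypothetical protein (NO23G01500, r = 0.976), a phosphoribosylaminoimidazole carboxylase match (NO02G00950, r = 0.967) and a root UVB sensitive 3 match (NO07G01920, r = 0.967).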

How the data were processed

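The 6 libraries were grouped by their titles. The tools named in the submitters' processing notes are STAR, Trim Galore, featureCounts, Picard, edgeR and StringTie, without a version or a role. The genome build and annotation are not given in the sources used here. Per the file headers, the authors deposited for each gene and library a length, an FPKM, a TPM and an expected count. These deposited expected counts carry no normalization and were rounded to whole numbers for the test. The authors' FPKM are relative to length and library size, and the authors' TPM add up to the same sum in every library. The authors' deposited table of 217 genes also gave a log2 fold change and p-values, which were not used here. It was used for which genes it lists, and its FPKM were checked and matched those of the libraries.

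The design foresaw counts or expected counts. Genes passed filterByExpr (9244 of 10633), were scaled by TMM and compared by edgeR 4.0.16's robust quasi-likelihood test (R 4.3.3) without a replicate block. Standard errors are the log2 fold change over the root of F, intervals use the fit's degrees of freedom, and p-values were adjusted over all genes tested. Replicate numbers were not taken as pairs: deviations of same-numbered libraries from their group means correlated at -0.36, 0.08 and -0.43. Shares were compared by exact permutation in Python 3.11.15. The 8 gene lists were word patterns on the descriptions, and take in some genes by wording alone. In each list the called genes, at most 2, or else the most abundant gene was named, and for each member the 3 genes with the most similar pattern. A few other list genes were named to explain a range or a level. Members, lists and alternatives were chosen with earlier results of these data known. Alternatives were the block, other filters, RLE scaling, DESeq2 1.42.0, limma 3.58.1 on FPKM, removal of a trend on gene length, and leaving out libraries. No sequence is shown: 0 of the 5 genes matched the 160 genes of the reference table.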

Additional observations from a re-analysis of the deposited data

How the results depend on the processing

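The directions of NO01G01240, NO04G04510, NO10G03400 and NO23G01760, and of the 5 shares, were kept under every alternative run. NO20G00630 changed direction without low CO2 replicate 1 (log2 fold change -0.03; -0.03 to 0.70 over the 6 fits that leave out a library), as did the difference in the summed level in FPKM (-32 FPKM; -32 to 280 over those 6), since that library holds its highest value. With all 6 libraries the difference in the summed level was 373 in TPM and 427 in CPM (exact permutation p = 0.1 and 0.3). Leaving out a library was done for the sum in FPKM only. Leaving out a library gave log2 fold changes of 0.54 to 0.83 for NO01G01240, -0.50 to -0.30 for NO04G04510, 0.13 to 0.37 for NO10G03400 and -0.26 to -0.17 for NO23G01760, with no call. NO01G01240 was called by DESeq2 (0.70, adjusted p = 0.0444) and, with NO04G04510, without both libraries that stood apart (0.47 and -0.36); the cause was not tested. Removing the trend on gene length gave 0.76 for NO01G01240 (adjusted p = 0.0735).

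Over all genes, 196 were called, against 588 by DESeq2, 3402 without both libraries, and 18 to 1610 without 1 library. Of 90 genes on the 8 lists 3 were called, against 17 by DESeq2, 49 without both libraries and 0 to 27 without 1. With the replicate block, 21 genes were called and 0 on the lists, and the log2 fold changes were 0.69, -0.41, 0.28, 0.36 and -0.21 for NO01G01240, NO04G04510, NO10G03400, NO20G00630 and NO23G01760, with no call. With 126 to 326 counts, NO01G01240 has the least depth of the 5.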

Other observations

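Zinc carriers and proton pumps were also looked at, as carbonic anhydrases hold zinc and the CO2 to bicarbonate reaction sets protons free. None of 8 genes on the zinc transporter list was called, with a median log2 fold change of -0.06 (range -0.46 to 0.60) against 0.01 for all genes tested. The most abundant, NO12G01070, matched to rice zinc transporters of the ZIP family, was at 161 FPKM in high and 256 FPKM in low CO2 (log2 fold change 0.60, edgeR adjusted p = 0.0759). None of 14 proton pump genes was called (median 0.03, range -0.53 to 0.84). The most abundant, NO20G02230, matched to subunit a of the vacuolar proton ATPase, had means of 1349.9 and 1369.8 FPKM in high and low CO2. On counts scaled by TMM its log2 fold change was 0.23 (edgeR adjusted p = 0.283), more than the FPKM means give.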
